A study of Mus musculus with 6 samples.

Results

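The 40 genes described here serve fatty acid uptake, mitochondrial oxidation, storage and PPAR control, and were followed in cultured neonatal mouse ventricular cardiomyocytes. They were taken by symbol from a list of 40 names, and all 40 were found among the 55487 genes of the count table and passed the expression filter that left 15576 genes. The wild-type cells came from hearts at postnatal day 1 or 2, were depleted of fibroblasts with CD90 antibodies and had 12 h in medium with serum before treatment. They then received GANT61 at 3 µM, cyclopamine at 5 µg/ml or DMSO, the solvent control, for 48 h. GANT61 blocks the GLI transcription factors that end the Hedgehog pathway, and cyclopamine acts upstream of them on the membrane protein Smoothened. An agonist of Smoothened named in the protocol was not analysed here. The series asks what GLI signalling does in postnatal cardiomyocytes and inhibits it at these distinct levels. The labels list 6 samples, 2 per group, whereas the table holds 1 count column per group and does not say whether it is a single culture or a pool. No difference between groups below has a replicate check, and doses given in µM and µg/ml were not matched.

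The columns held 35461530 counts for GANT61, 38966515 for cyclopamine and 36661845 for DMSO. The 40 genes took 0.646% of the counts in GANT61, 0.616% in cyclopamine and 0.548% in DMSO. Log2 fold changes are differences of log2 CPM, the count relative to library size, scaled by TMM, a trimmed mean of log ratios between libraries. Each has an exact 95% counting interval, given in parentheses, which covers counting error only and not the variation between cultures. The words higher or lower by size are kept for differences of 1.5-fold or more whose interval leaves out 0. A value followed by an interval is a log2 fold change against DMSO unless counts, a ratio or cyclopamine is named. Cardiomyocyte markers were the deepest of the cell type lists checked. The 12 markers summed to 57818 CPM in GANT61, 64649 in cyclopamine and 67747 in DMSO, in keeping with the label. In GANT61 10 of the 12 lay below DMSO and 2 above, and 2 were lower by size. In cyclopamine 5 lay below and 7 above, and 0 were called. Marker calls are to be read against all genes tested, of which 8.4% were higher and 13.3% lower in GANT61. In cyclopamine those shares were 4.1% and 7.27%. The 8 fibroblast markers summed to 854 CPM in GANT61, 1013 in cyclopamine and 1305 in DMSO, but did not go 1 way: in GANT61 3 were lower and 1, Dcn, higher by size, and in cyclopamine Dcn was the lone call, also higher. Smooth muscle and pericyte markers summed to 1592, 1683 and 2646 CPM in GANT61, cyclopamine and DMSO. Of the 6 past the filter, 6 lay below DMSO in GANT61, and in cyclopamine 4 lay below and 2 above. In each inhibitor library 2 of the 6 were lower by size (33.3%) and 0 higher. These were Cnn1, at -2.77 in GANT61 and -1.81 in cyclopamine, and Acta2, at -0.69 in GANT61 and -0.73 in cyclopamine. The part of these differences in the results was not tested. Less RNA of a gene per cell and fewer cells that express it cannot be told apart in such bulk libraries.

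Long-chain fatty acids enter the mitochondrion as carnitine esters, made by CPT1 at the outer membrane, carried by the SLC25A20 exchanger and returned to CoA by CPT2. Inside, acyl-CoA dehydrogenases, hydratases, hydroxyacyl-CoA dehydrogenases and thiolases shorten the chain in repeated rounds, and electron transfer flavoprotein passes the electrons on to the respiratory chain. PPARα and PPARδ, which pair with RXR, and the oestrogen-related receptors ERRα and ERRγ, with the coactivators PGC-1α and PGC-1β, are the known transcriptional controls of these genes in heart. The heart is known to turn from glucose and lactate towards fatty acids in the days after birth.

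Few of the 40 genes passed the size rule, and most of those that did serve uptake, storage or control. Among all 40, the GANT61 library had 7 higher and 1 lower by size, where 8.4% of all genes tested were higher and 13.3% lower. In cyclopamine 4 were higher and 1 lower, where 4.1% of all genes were higher and 7.27% lower. The 20 genes of the oxidation machinery (carnitine shuttle, chain-shortening enzymes and electron transfer) held 1 of the higher calls and the lower call in GANT61, and 0 calls in cyclopamine. The 13 genes of uptake, storage and targets held 4 of the higher calls in GANT61, and 3 higher calls and the lower one in cyclopamine. The 7 receptors and coactivators held 2 higher calls in GANT61 and 1 in cyclopamine. The share called higher was thus 17.5% in GANT61 and 10.0% in cyclopamine, above the background in each. The share called lower was 2.5% in each, below it. Since the members and the size rule were chosen with earlier results of these data known, these shares are a description only. The median log2 fold change of the 40 genes was 0.08 in GANT61 and 0.03 in cyclopamine, and over all genes -0.01 in GANT61 and -0.00 in cyclopamine. The counting interval lay above 0 for 20 and below 0 for 8 of the 40 genes in GANT61, and above 0 for 14 and below 0 for 7 in cyclopamine, mostly at differences under 1.5-fold. With at least 5 CPM required in 2 libraries, 5 of the 35 genes left were higher and 1 lower in GANT61, where 6.01% of genes were higher and 8.47% lower. In cyclopamine 3 were then higher and 0 lower, where 1.82% were higher and 2.61% lower. The comparisons of the inhibitors with DMSO share the same DMSO column, so like directions in both are not separate evidence.

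**Figure D1:**
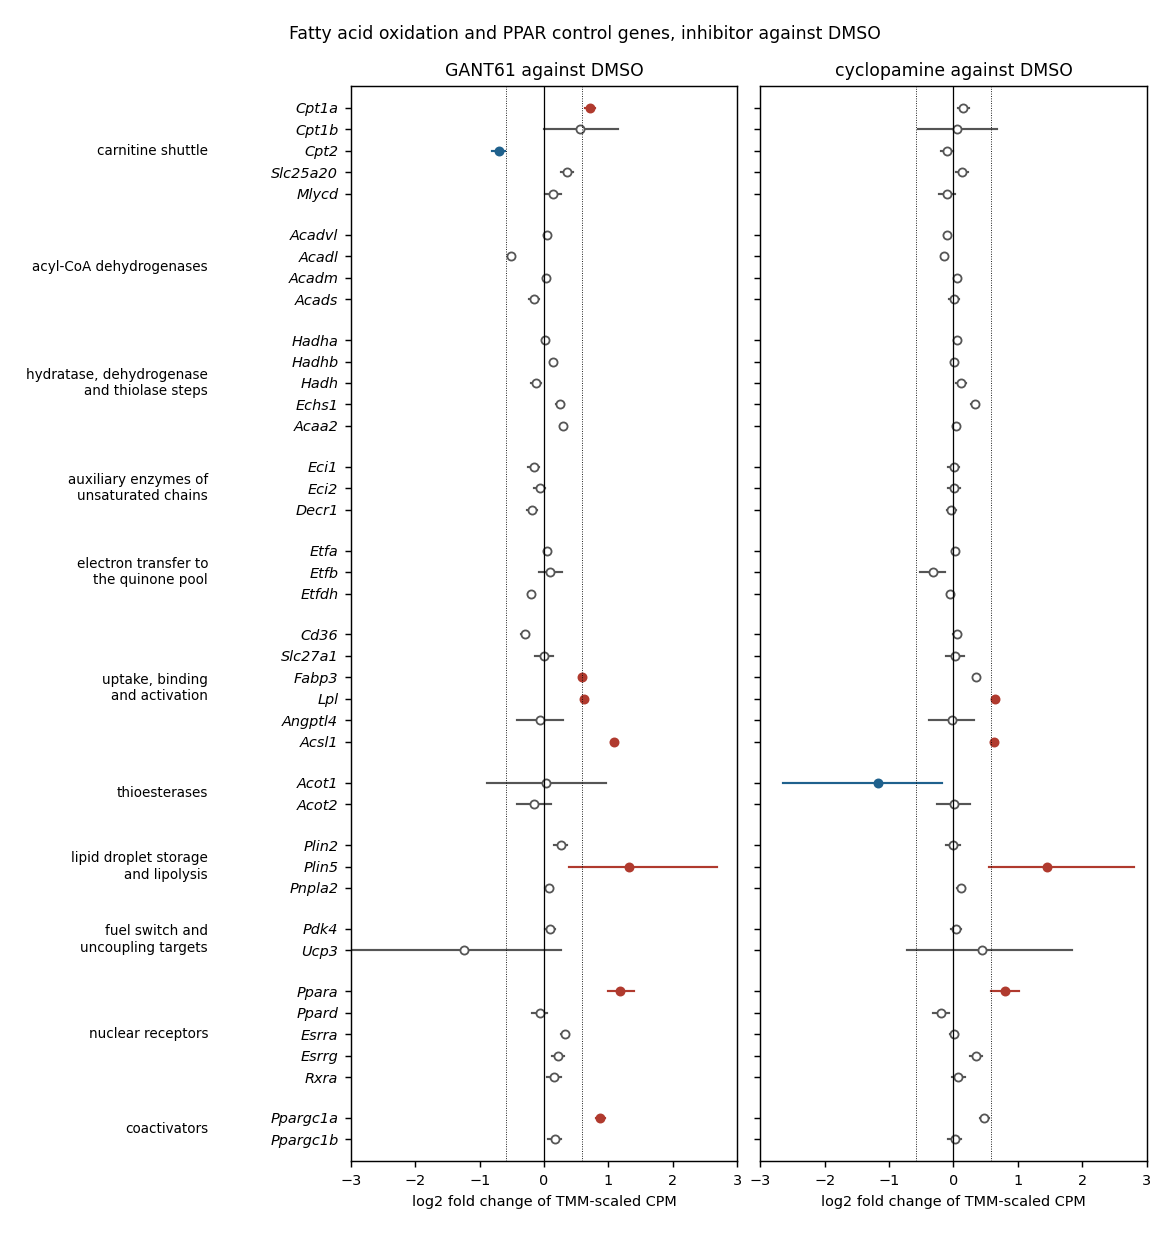
Log2 fold change of TMM-scaled CPM (horizontal axis) of the 40 genes, grouped by role, in GANT61 (left) and cyclopamine (right) against DMSO. Points are single libraries, lines are exact 95% counting intervals (the one of Ucp3 in GANT61 runs past the axis), dotted lines mark 1.5-fold, and filled red or blue points are higher or lower by size. Calls lie mainly among the uptake genes and the controls Ppara and Ppargc1a, and of the 20 genes of the oxidation machinery Cpt1a and Cpt2 in GANT61 pass the size rule.

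Summed levels are given as a description, since Lpl, Fabp3 and Acsl1 were set apart after their values were seen. Together these 3 genes stood at 2604 CPM in GANT61 and 2393 CPM in cyclopamine, against 1643 CPM in DMSO. The other 37 genes summed to 3792 CPM in GANT61, 3856 CPM in cyclopamine and 3816 CPM in DMSO, a ratio to DMSO of 0.994 in GANT61 and 1.01 in cyclopamine. That sum nets opposite differences, among them Acadl at 489 CPM in GANT61, 630 CPM in cyclopamine and 701 CPM in DMSO. The oxidation machinery summed to 2979 CPM in GANT61, 3086 CPM in cyclopamine and 3105 CPM in DMSO.

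Among the receptors, Ppara (chromosome 15, 85734983 to 85802819, GRCm38), which encodes PPARα, the lipid-activated receptor that drives fatty acid oxidation genes, had 639 counts in GANT61, 523 in cyclopamine and 288 in DMSO. Both inhibitor libraries lay above DMSO, GANT61 the farther. The log2 fold change was 1.18 (0.99 to 1.40) in GANT61 and 0.80 (0.59 to 1.01) in cyclopamine. Ppard, which encodes PPARδ, had 1064 counts in GANT61, 1046 in cyclopamine and 1148 in DMSO, and log2 fold changes against DMSO of -0.07 (-0.19 to 0.05) in GANT61 and -0.20 (-0.32 to -0.07) in cyclopamine. The ratio of these isoforms, which needs no scaling between libraries, was 0.601 counts of Ppara per count of Ppard in GANT61 and 0.50 in cyclopamine, against 0.251 in DMSO. Per kb of exon Ppara stood above Ppard in GANT61, at 4.65 against 3.96 CPM per kb. In cyclopamine Ppara stood at 3.55 and Ppard at 3.62 CPM per kb, and in DMSO at 2.04 and 4.15. Rxra, the shared partner of both, had 1535, 1558 and 1418 counts in GANT61, cyclopamine and DMSO, and differed from DMSO by 0.15 (0.05 to 0.26) in GANT61 and 0.07 (-0.03 to 0.18) in cyclopamine on the log2 scale.

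The oestrogen-related receptors were not called in either library. Esrra, which encodes ERRα, had 4973 counts in GANT61, 4296 in cyclopamine and 4078 in DMSO. Its log2 fold change was 0.33 (0.27 to 0.39) in GANT61 and 0.01 (-0.05 to 0.08) in cyclopamine. Esrrg, which encodes ERRγ, had 1863 counts in GANT61, 2192 in cyclopamine and 1648 in DMSO, and log2 fold changes against DMSO of 0.22 (0.12 to 0.31) in GANT61 and 0.35 (0.26 to 0.44) in cyclopamine. The larger value was thus that of Esrra in GANT61 and that of Esrrg in cyclopamine. The ratio of Esrrg to Esrra was 0.375 in GANT61, 0.510 in cyclopamine and 0.404 in DMSO.

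Of the coactivators, Ppargc1a (chromosome 5, 51454250 to 51567726), which encodes PGC-1α, the inducible coactivator of mitochondrial and oxidation genes, had 4145 counts in GANT61, 3384 in cyclopamine and 2324 in DMSO. It was higher by size in GANT61 at 0.87 (0.80 to 0.95) and under the threshold in cyclopamine at 0.48 (0.40 to 0.56). Ppargc1b, which encodes PGC-1β, had 1652 counts in GANT61, 1600 in cyclopamine and 1515 in DMSO, and log2 fold changes against DMSO of 0.17 (0.06 to 0.27) in GANT61 and 0.02 (-0.08 to 0.12) in cyclopamine. The ratio of Ppargc1a to Ppargc1b was 2.51 in GANT61, 2.12 in cyclopamine and 1.53 in DMSO. Ppara and Ppargc1a shared one order of the libraries by CPM, with GANT61 above cyclopamine and cyclopamine above DMSO. That order was not particular to them. Esrra, Rxra and Ppargc1b had it too, though their cyclopamine intervals included no difference, and so did Acsl1, Fabp3 and Cpt1a among others. Ppard and Esrrg did not.

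**Figure D2:**
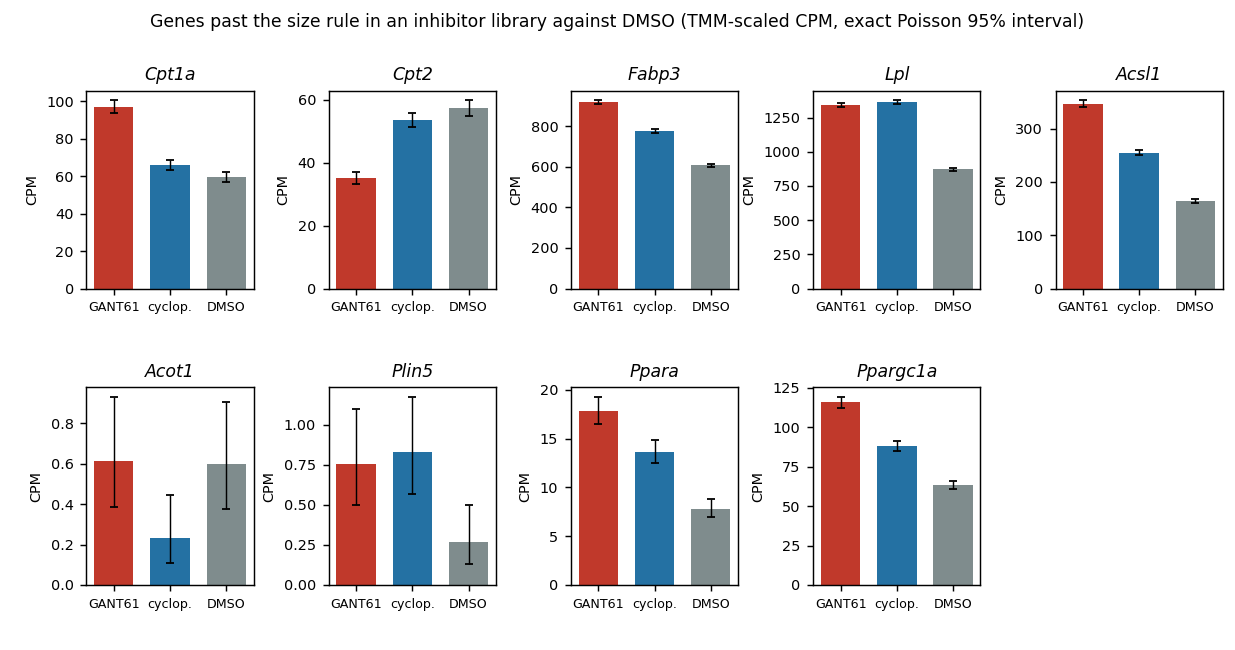
TMM-scaled CPM (vertical axes, from 0) of the 9 genes past the size rule in GANT61 or cyclopamine against DMSO, with 1 bar per library and exact Poisson 95% intervals. Cpt2 is the lone well-counted gene that is lowest in GANT61, and Acot1 and Plin5 stay under 1 CPM with wide intervals.

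The genes that bring fatty acids to the cell and activate them held the deepest differences. Lpl (chromosome 8, 68880491 to 68907448), which encodes the lipoprotein lipase that frees fatty acids from circulating triglyceride, had 47992 counts in GANT61, 52379 in cyclopamine and 32089 in DMSO. The inhibitor libraries lay close together and above DMSO, at 0.62 (0.60 to 0.64) in GANT61 and 0.65 (0.63 to 0.67) in cyclopamine. Acsl1 (chromosome 8, 46471037 to 46536051), the main long-chain acyl-CoA synthetase of heart, had 12413 counts in GANT61, 9785 in cyclopamine and 6037 in DMSO. It was higher by size in both, at 1.08 (1.04 to 1.12) in GANT61 and 0.64 (0.59 to 0.68) in cyclopamine. Fabp3 (chromosome 4, 130308595 to 130315463), the heart fatty acid binding protein of the cytosol, had 32810 counts in GANT61, 29773 in cyclopamine and 22362 in DMSO. Its log2 fold change of 0.59 (0.57 to 0.62) in GANT61 was just past the threshold, and 0.35 (0.33 to 0.38) in cyclopamine was under it. With the stricter filter of 5 CPM in 2 libraries the GANT61 value was 0.57, under the threshold. Fabp3 shares 37.3% of its 50-base windows with other annotated genes, among them the pseudogene Fabp3-ps1, which had 53 counts in GANT61, 47 in cyclopamine and 30 in DMSO.

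The other uptake genes were not called in either library. Cd36, the fatty acid translocase of the cell surface, had 3423 counts in GANT61, 4685 in cyclopamine and 4328 in DMSO. It stood at -0.30 (-0.36 to -0.23) in GANT61 and 0.05 (-0.01 to 0.11) in cyclopamine. Slc27a1, a fatty acid transport protein gene, had 797, 873 and 820 counts in GANT61, cyclopamine and DMSO, and both intervals included no difference. Angptl4, an inhibitor of lipoprotein lipase and a known PPAR target, had 127 counts in GANT61, 139 in cyclopamine and 136 in DMSO, at -0.06 (-0.42 to 0.30) in GANT61 and -0.03 (-0.38 to 0.32) in cyclopamine. Lpl and Cd36 are also used by adipocytes, endothelial cells and macrophages, so markers of those cells were read beside them. Of 8 adipocyte markers 7 were at 0 counts in GANT61, 6 in cyclopamine and 6 in DMSO, Plin1, Cidec, Lep, Retn and Cfd among them in every library, and Fabp4 had 24 counts in GANT61, 13 in cyclopamine and 18 in DMSO. The 8 endothelial markers summed to 74.6 CPM in GANT61, 86.7 CPM in cyclopamine and 91.3 CPM in DMSO, with Gpihbp1 at 0 counts in all 3. The 7 past the filter all lay below DMSO in GANT61, 2 of them lower by size (28.6%, against 13.3% of all genes). In cyclopamine 5 lay below and 2 above DMSO, and 0 were called. The 10 macrophage markers summed to 8.80 CPM in GANT61, 16.2 CPM in cyclopamine and 11.0 CPM in DMSO, with C1qb at 0 counts in cyclopamine. The macrophage markers went both ways. Lyz2 had 163 counts in GANT61, 465 in cyclopamine and 274 in DMSO, and Csf1r had 107 in GANT61, 57 in cyclopamine and 40 in DMSO. The part of endothelial cells and macrophages in the values of Lpl and Cd36 was not tested. Of the mesothelial markers, 7 of 7 lay above DMSO in GANT61, 6 of them higher by size (85.7%, against 8.4% of all genes). In cyclopamine 4 lay above and 3 below DMSO, and 3 were higher by size (42.9%, against 4.1% of all genes). The list summed to 146 CPM in GANT61, against 76.6 CPM in cyclopamine and 73.4 CPM in DMSO. Krt19 made up most of each sum, at 87.0, 60.6 and 62.3 CPM in GANT61, cyclopamine and DMSO. The part of mesothelial cells in the values of either inhibitor library was not tested.

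In the carnitine shuttle the entry and exit transferases stood on opposite sides of DMSO in GANT61. Cpt1a (chromosome 19, 3322334 to 3385733), the CPT1 isoform of liver and of the immature heart, had 3478 counts in GANT61, 2534 in cyclopamine and 2188 in DMSO. It was higher by size in GANT61 at 0.71 (0.63 to 0.79) and stood at 0.15 (0.07 to 0.23) in cyclopamine. Cpt2 (chromosome 4, 107903981 to 107923610) had 1259 counts in GANT61, 2055 in cyclopamine and 2108 in DMSO. It was the lone gene of the group lower by size in GANT61, at -0.70 (-0.81 to -0.60), and stood at -0.10 (-0.19 to -0.01) in cyclopamine. The ratio of Cpt1a to Cpt2 counts was 2.76 in GANT61 and 1.23 in cyclopamine, against 1.04 in DMSO. The log2 change of that ratio against DMSO was 1.41 (approximate counting interval 1.29 to 1.54) in GANT61 and 0.25 (0.13 to 0.37) in cyclopamine. Slc25a20, the carnitine-acylcarnitine exchanger, had 2116 counts in GANT61, 1952 in cyclopamine and 1704 in DMSO, at 0.35 (0.26 to 0.45) in GANT61 and 0.13 (0.04 to 0.23) in cyclopamine. Mlycd, which encodes the malonyl-CoA decarboxylase that relieves the brake on CPT1, had 1080 counts in GANT61, 984 in cyclopamine and 1010 in DMSO, at 0.14 (0.01 to 0.26) in GANT61 and -0.10 (-0.23 to 0.03) in cyclopamine.

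Cpt1b, the muscle isoform of CPT1, had 65 counts in GANT61, 49 in cyclopamine and 45 in DMSO, at 0.55 (0.00 to 1.15) in GANT61 and 0.06 (-0.55 to 0.68) in cyclopamine, and was not called. Its level is uncertain. In the GENCODE annotation 81.4% of its exon bases lie in exons of Gm44502, a gene on the same strand that had 0 counts in all 3 libraries. Etfb, described below, is in the same position, with 58.2% of its exon bases in exons of other genes on its strand. Chief among these is Gm45233, which also had 0 counts in all 3 libraries. Whether reads matching both genes were left out of the counts is not given in the sources used here.

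**Figure D3:**
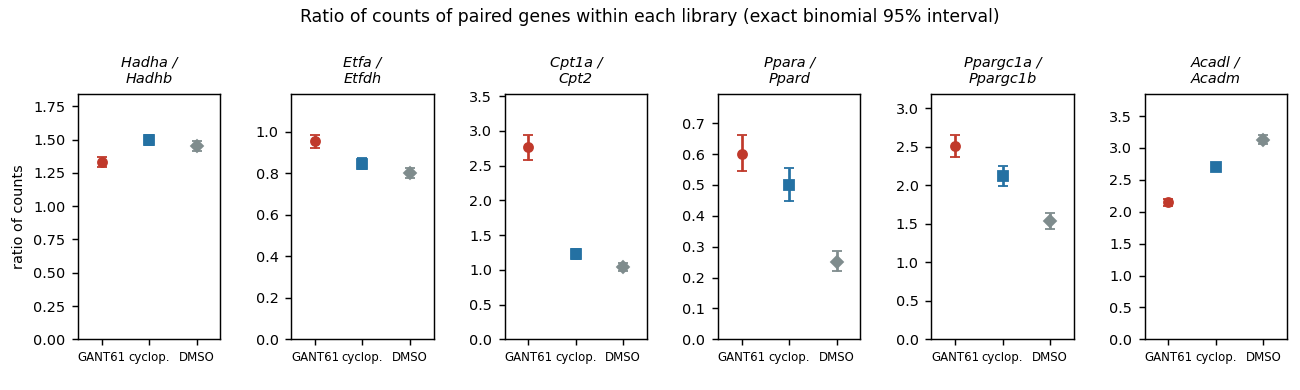
Ratio of counts of paired genes (vertical axes, from 0) within the GANT61, cyclopamine and DMSO libraries, with exact binomial 95% intervals. Cpt1a to Cpt2 is 2.76 in GANT61 against 1.04 in DMSO, Ppara to Ppard and Ppargc1a to Ppargc1b are higher in both inhibitor libraries than in DMSO, and Hadha to Hadhb varies little.

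Promoter windows were looked up for the genes of control, activation and the carnitine shuttle that these results turn on. Of these, Ppara, Ppargc1a, Acsl1 and Cpt1a were highest in GANT61, and Cpt2 was lowest in GANT61. RefSeq windows of 300 bases on GRCm38.p6, from 250 before to 50 after the gene start, were matched by symbol for 34 of the 40 genes. They were searched on both strands for AGGTCA, the core that nuclear receptors of the PPAR, RXR and ERR kind bind, for the direct repeat that PPAR and RXR bind together (2 copies of the core in 1 direction with any 1 base between) and for the ERR element (TNAAGGTCA). Both longer motifs contain the core. The core was in a window of 9 of the 34 genes, against 18.1% of all 27025 genes with a window. The 9 were Acadm, Acadvl, Cd36, Cpt1a, Echs1, Plin2, Plin5, Rxra and Ucp3. The repeat was in 0 of 34, against 0.0481% of all genes, and the ERR element in 0 of 34, against 1.43%. A shorter form of the ERR element, AAGGTCA, was searched as well. It was in 2 of 34, Acadm and Rxra, against 5.38% of all genes. The windows shown were chosen after their values were seen. Capitals mark the core, which was found in that of Cpt1a in the reverse direction (TGACCT) and not in the others.
Ppara, chr15:85735526-85735825, + strand: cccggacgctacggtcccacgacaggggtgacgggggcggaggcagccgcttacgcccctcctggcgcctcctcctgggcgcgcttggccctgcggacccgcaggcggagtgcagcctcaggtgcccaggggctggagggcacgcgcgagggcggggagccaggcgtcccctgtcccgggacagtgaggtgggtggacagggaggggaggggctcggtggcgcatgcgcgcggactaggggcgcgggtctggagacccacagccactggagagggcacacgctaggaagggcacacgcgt
Ppargc1a, chr5:51567676-51567975, - strand: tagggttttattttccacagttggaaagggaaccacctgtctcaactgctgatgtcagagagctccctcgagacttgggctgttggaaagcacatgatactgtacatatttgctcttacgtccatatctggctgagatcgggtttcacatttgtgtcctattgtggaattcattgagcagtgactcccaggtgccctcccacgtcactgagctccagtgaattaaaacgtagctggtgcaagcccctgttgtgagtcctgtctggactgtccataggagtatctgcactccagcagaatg
Acsl1, chr8:46470787-46471086, + strand: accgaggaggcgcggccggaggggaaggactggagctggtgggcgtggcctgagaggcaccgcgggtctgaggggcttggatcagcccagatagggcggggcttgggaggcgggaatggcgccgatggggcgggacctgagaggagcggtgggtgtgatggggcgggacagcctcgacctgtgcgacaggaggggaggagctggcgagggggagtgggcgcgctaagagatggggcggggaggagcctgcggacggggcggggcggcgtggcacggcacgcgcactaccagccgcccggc
Cpt1a, chr19:3323051-3323350, + strand: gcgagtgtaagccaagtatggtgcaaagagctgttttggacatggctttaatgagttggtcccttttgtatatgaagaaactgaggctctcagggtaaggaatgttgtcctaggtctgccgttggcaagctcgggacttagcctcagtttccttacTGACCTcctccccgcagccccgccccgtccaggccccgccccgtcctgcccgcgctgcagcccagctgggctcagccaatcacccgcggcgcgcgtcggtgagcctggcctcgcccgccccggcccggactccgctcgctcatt
Cpt2, chr4:107923540-107923839, - strand: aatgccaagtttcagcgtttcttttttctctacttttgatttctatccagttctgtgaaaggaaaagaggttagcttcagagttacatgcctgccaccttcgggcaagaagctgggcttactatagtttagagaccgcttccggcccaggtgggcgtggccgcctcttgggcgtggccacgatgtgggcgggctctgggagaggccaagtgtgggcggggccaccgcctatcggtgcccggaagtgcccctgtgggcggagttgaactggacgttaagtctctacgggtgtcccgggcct
These letters describe the windows alone. Acsl1 has a further window downstream, which does not hold the core either.

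The acyl-CoA dehydrogenases take chains of falling length. Acadvl, for very long chains, had 7721 counts in GANT61, 7551 in cyclopamine and 7737 in DMSO, at 0.04 (-0.01 to 0.08) in GANT61 and -0.10 (-0.14 to -0.05) in cyclopamine. It shares 42.9% of its exon bases with Dvl2 on the opposite strand, and the strand setting of the counting is not given in the sources used here. Acadl (chromosome 1, 66830839 to 66863277), for long chains, had 17506 counts in GANT61, 24218 in cyclopamine and 25791 in DMSO. It was lowest in GANT61, at -0.52 (-0.55 to -0.49), short of the size threshold, and stood at -0.15 (-0.18 to -0.13) in cyclopamine. Acadm, for medium chains, had 8146 counts in GANT61, 8973 in cyclopamine and 8236 in DMSO, at 0.02 (-0.02 to 0.07) in GANT61 and 0.06 (0.02 to 0.11) in cyclopamine. Acads, for short chains, had 2447, 2956 and 2817 counts in GANT61, cyclopamine and DMSO, at -0.16 (-0.24 to -0.08) in GANT61 and 0.01 (-0.07 to 0.08) in cyclopamine. The count ratio of Acadl to Acadm was 2.15 in GANT61, 2.70 in cyclopamine and 3.13 in DMSO, so relative to the medium-chain gene the long-chain gene stood lower in both inhibitor libraries than in DMSO, and lowest in GANT61.

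Of the 5 genes of the later steps of the cycle, 0 passed the size rule in either library. Hadha and Hadhb encode the subunits of the mitochondrial trifunctional protein and lie head to head on chromosome 5, Hadha on the minus strand with its start at 30155162 and Hadhb on the plus strand with its start at 30155248. Hadha had 13061 counts in GANT61, 14392 in cyclopamine and 13341 in DMSO, at 0.01 (-0.03 to 0.04) in GANT61 and 0.05 (0.01 to 0.08) in cyclopamine. Hadhb had 9811 counts in GANT61, 9607 in cyclopamine and 9182 in DMSO, at 0.14 (0.09 to 0.18) in GANT61 and 0.00 (-0.04 to 0.05) in cyclopamine. Their count ratio was 1.33 in GANT61, 1.498 in cyclopamine and 1.45 in DMSO. Per kb of exon Hadha and Hadhb stood at 41.8 and 41.6 CPM per kb in GANT61. In cyclopamine they stood at 42.9 and 37.9 CPM per kb, and in DMSO at 41.5 and 37.8. Echs1, the short-chain enoyl-CoA hydratase, had 5448 counts in GANT61, 6190 in cyclopamine and 4720 in DMSO, at 0.25 (0.19 to 0.30) in GANT61 and 0.33 (0.27 to 0.38) in cyclopamine, the highest value of the oxidation machinery in cyclopamine. Hadh, the hydroxyacyl-CoA dehydrogenase of shorter chains, had 2657, 3387 and 2992 counts in GANT61, cyclopamine and DMSO, at -0.13 (-0.21 to -0.06) in GANT61 and 0.12 (0.05 to 0.19) in cyclopamine. Acaa2, a mitochondrial thiolase gene, had 10292 counts in GANT61, 9272 in cyclopamine and 8631 in DMSO. It stood at 0.29 (0.25 to 0.34) in GANT61 and 0.04 (-0.00 to 0.08) in cyclopamine.

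Eci1, Eci2 and Decr1 encode the isomerases and the reductase that unsaturated chains need. Eci1, the highest of them per kb, had 2044 counts in GANT61, 2458 in cyclopamine and 2354 in DMSO. The log2 fold changes of the 3 genes ran from -0.19 to -0.07 in GANT61 and from -0.03 to 0.01 in cyclopamine. In electron transfer, Etfa, a subunit of electron transfer flavoprotein, had 7096 counts in GANT61, 7493 in cyclopamine and 7070 in DMSO, and both intervals included no difference. Etfdh, which hands the electrons to ubiquinone, had 7432, 8855 and 8826 counts in GANT61, cyclopamine and DMSO, at -0.21 (-0.25 to -0.16) in GANT61 and -0.06 (-0.10 to -0.01) in cyclopamine. Etfb, the other flavoprotein subunit, had 509 counts in GANT61, 408 in cyclopamine and 489 in DMSO, with the overlap given above. It stood at 0.10 (-0.08 to 0.28) in GANT61 and -0.32 (-0.52 to -0.13) in cyclopamine, the lowest value of the oxidation machinery in cyclopamine.

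Storage and the remaining PPAR targets showed few differences. Pnpla2, which encodes the lipase that opens the lipid droplet store, had 4507 counts in GANT61, 4972 in cyclopamine and 4401 in DMSO, at 0.07 (0.01 to 0.13) in GANT61 and 0.11 (0.06 to 0.17) in cyclopamine. Plin2, the common droplet coat protein gene, had 1732 counts in GANT61, 1543 in cyclopamine and 1489 in DMSO, at 0.26 (0.16 to 0.36) in GANT61 and -0.01 (-0.11 to 0.09) in cyclopamine. Plin5 (chromosome 17, 56111601 to 56117596), the droplet coat protein of oxidative tissue, was higher by size in both libraries but on few counts. It had 27 counts in GANT61 (exact Poisson interval 17.8 to 39.3), 32 in cyclopamine (21.9 to 45.2) and 10 in DMSO (4.80 to 18.4). Its log2 fold changes were 1.31 (0.38 to 2.68) in GANT61 and 1.45 (0.56 to 2.81) in cyclopamine.

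Pdk4, the pyruvate dehydrogenase kinase that spares glucose carbon and a known target of PPARs and ERRs, had 2378 counts in GANT61, 2460 in cyclopamine and 2297 in DMSO. It stood at 0.09 (0.01 to 0.17) in GANT61 and 0.04 (-0.05 to 0.12) in cyclopamine, under the threshold in both. Ucp3, a mitochondrial carrier known as a target of PPARs, had 3, 15 and 10 counts in GANT61, cyclopamine and DMSO. Its ratio to DMSO was 0.309 in GANT61, with a log2 interval of -4.20 to 0.26, and a difference was not detectable at this depth. The thioesterase genes Acot1 and Acot2, which release CoA from acyl chains, lie side by side on chromosome 12 and share 18.9% and 27.7% of their 50-base windows with each other and with further genes. Acot1 had 22 counts in GANT61 (13.8 to 33.3), 9 in cyclopamine (4.12 to 17.1) and 22 in DMSO (13.8 to 33.3), and was the lone gene lower by size in cyclopamine, at -1.18 (-2.65 to -0.17). Acot2 had 221 counts in GANT61, 265 in cyclopamine and 253 in DMSO, and both intervals included no difference. Given the shared sequence and the low counts, the value of Acot1 is uncertain.

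Levels per kb of merged exons put the group in order. In DMSO Fabp3 led at 738 CPM per kb, ahead of Acadl at 349, Acaa2 at 155, Etfa at 105 and Lpl at 83.2. Fabp3, Acadl and Acaa2 held the first 3 places in every library. Acsl1 took place 11 in GANT61 and 16 in cyclopamine, against 20 in DMSO, and Cpt2 took place 22 in GANT61 and 17 in cyclopamine, against 16 in DMSO. Neighbours such as Hadha at 41.8 and Pnpla2 at 41.7 CPM per kb in GANT61 cannot be ranked without replicates. Acot1, Plin5, Cpt1b and Ucp3 were the 4 lowest in each library, all under 1 CPM per kb. Merged exon length counts every annotated exon, which lowers the level of genes with many alternative exons.

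**Figure D4:**
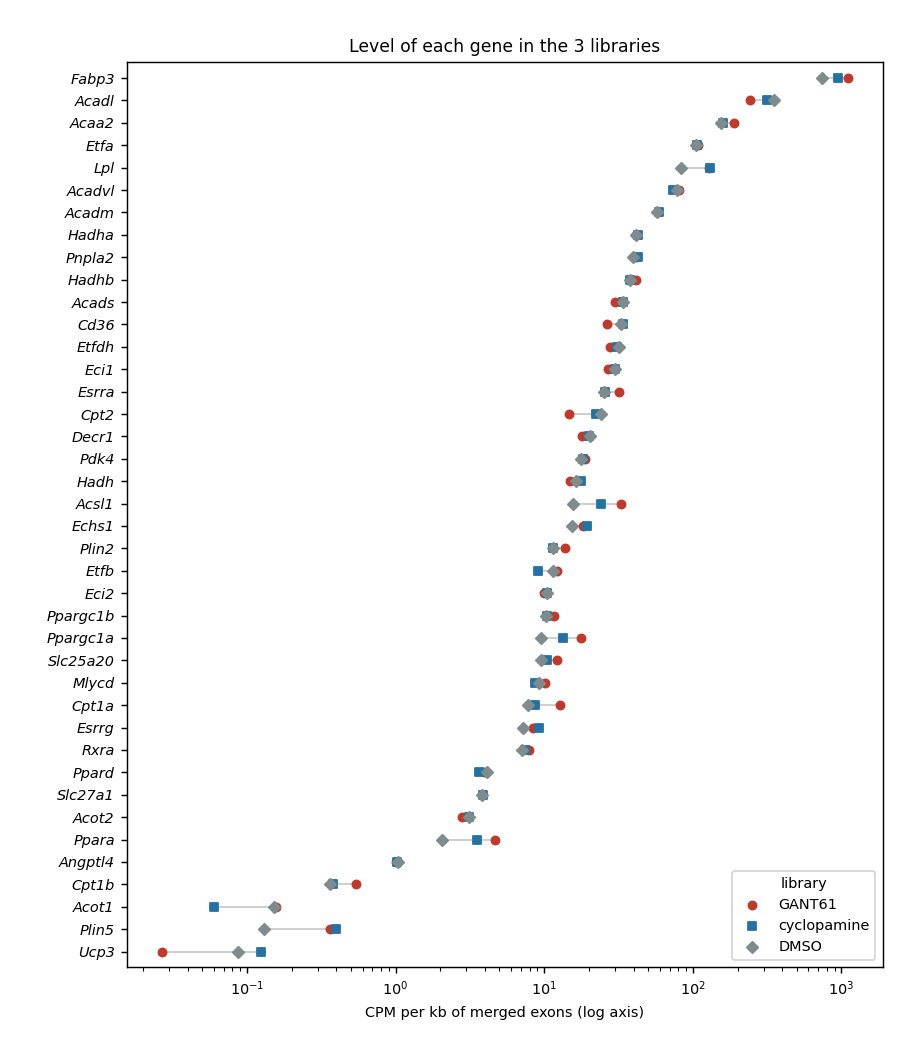
Level of each of the 40 genes in CPM per kb of merged exons (horizontal log axis), in the order of DMSO, with 1 symbol per library. Fabp3 is highest in all 3 libraries, and the symbols of most genes overlap, with Acsl1, Ppara, Ppargc1a, Cpt1a and Cpt2 among those spread apart.

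The inhibitors were also set against each other, GANT61 over cyclopamine, without matched doses. Of the 40 genes 1 was higher and 2 lower by size, where 6.16% of all genes tested were higher and 8.83% lower, and the median was -0.00. With at least 5 CPM in 2 libraries 0 were higher and 1 lower, where 2.68% and 4.79% of genes were. The gene higher in GANT61 was Acot1, at 1.21 (0.22 to 2.69) with 22 counts against 9. The genes lower were Cpt2, at -0.60 (-0.71 to -0.50), and Ucp3, at -1.69 (-4.65 to -0.40) with 3 counts against 15. Under the size threshold, Cpt1a stood at 0.56 (0.48 to 0.63), Acsl1 at 0.44 (0.41 to 0.48), Ppara at 0.39 (0.22 to 0.56) and Ppargc1a at 0.39 (0.33 to 0.46). Lower in GANT61 were Acadl at -0.37 (-0.39 to -0.34) and Cd36 at -0.35 (-0.41 to -0.29). Lpl differed least among the deep uptake genes, at -0.02 (-0.04 to -0.01). With scaling by library size alone Cpt1a passed the threshold and Cpt2 lost it, so both lie at the edge of the call.

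Both inhibitor libraries were also tested as a single arm against DMSO, in an edgeR quasi-likelihood fit over 15576 genes. The spread between the inhibitors is the error of that fit, which has 1 residual degree of freedom, and the lone DMSO library is assumed to vary like them. At a Benjamini-Hochberg adjusted p of 0.05 edgeR called 0 genes (0% higher and 0% lower), although 977 had an unadjusted p under 0.05. Among the 40 genes 0 were called by edgeR, 0 by limma-voom and 0 by DESeq2, which called 0.494% of its 12556 genes higher and 0.637% lower and gave no adjusted p for 3 of the 40. At an unadjusted p under 0.05 were 5 of the 40, all higher: Acsl1, Ppara, Lpl, Ppargc1a and Fabp3. Their edgeR adjusted p-values were 0.432 for Acsl1, 0.487 for Ppara, 0.489 for Lpl, 0.589 for Ppargc1a and 0.780 for Fabp3, with both inhibitor libraries above DMSO for each. Without a filter on low counts edgeR called 482 of 22450 genes (0.882% higher and 1.27% lower), among them, as higher, Acsl1, Ppara and Ppargc1a with adjusted p-values of 0.00218, 0.0310 and 0.0493. Over all alternatives the adjusted p ran from 0.00218 to 0.696 for Acsl1, from 0.0310 to 0.727 for Ppara and from 0.0493 to 0.856 for Ppargc1a.

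The rest of the pathway was read from 141 further symbols, of which 140 were in the table and 130 past the filter. Of these, in GANT61, 14 were higher and 8 lower by size, and 5 were higher and 4 lower in cyclopamine, with medians of 0.11 in GANT61 and 0.09 in cyclopamine. That is 10.8% higher and 6.15% lower in GANT61, against 8.4% and 13.3% of all genes tested, and 3.85% higher and 3.08% lower in cyclopamine, against 4.1% and 7.27%. The counts of the separate lists below are to be read against the same shares of all genes. DESeq2 called 3 of them in the test of both inhibitors, Lpin1 (adjusted p 1.91e-05), Acsl3 (adjusted p 0.000413) and Acsl4 (adjusted p 0.0435), all higher in both inhibitor libraries, and edgeR called 0. Of 20 other genes of mitochondrial acyl chain oxidation 0 were higher in either library, and 1 was lower in GANT61, Acsf2, an acyl-CoA synthetase gene, at -0.79 (-1.06 to -0.53), with 37.2% of its 50-base windows also present in Gm5540. Of 23 peroxisomal genes 1 was higher and 2 lower in GANT61 and 0 higher and 1 lower in cyclopamine, and Crot, the peroxisomal carnitine octanoyltransferase, stood at -0.65 (-0.77 to -0.52) in GANT61. Among 15 other genes of uptake and activation 2 were higher in GANT61 and 3 in cyclopamine. The acyl-CoA synthetase genes Acsl3 and Acsl4 stood at 1.30 and 0.80 in GANT61 and at 1.45 and 0.93 in cyclopamine, and Dbi, the acyl-CoA binding protein, at 0.36 in GANT61 and 0.68 in cyclopamine.

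Among 23 other storage genes 4 were higher and 2 lower in GANT61, and 1 was higher and 1 lower in cyclopamine. Lpin1, a phosphatidate phosphatase that also acts with PPARα and PGC-1α, had 2777 counts in GANT61, 2670 in cyclopamine and 995 in DMSO, at 1.52 (1.42 to 1.63) in GANT61 and 1.36 (1.26 to 1.47) in cyclopamine. Abhd5, the activator of the lipase encoded by Pnpla2, stood at 0.86 (0.78 to 0.94) in GANT61, whereas G0s2, its inhibitor, stood at -1.25 (-1.46 to -1.05). The same genes stood at 0.29 (0.21 to 0.38) and -0.47 (-0.64 to -0.30) in cyclopamine. Of the 50-base windows of Abhd5, 29.0% are also present in A730085K08Rik, a gene on the opposite strand. Among 30 other receptors, coregulators and energy sensors 6 were higher (20.0%, against 8.4% of all genes) and 0 lower in GANT61, and 0 were called in cyclopamine. They included, with log2 fold changes in parentheses, Klf15 (0.93), a cardiac factor known to act on lipid use, Klf5 (0.89), a known activator of Ppara in mouse heart, and Perm1 (0.92), a muscle regulator downstream of PGC-1 and ERR. In cyclopamine Klf15 stood at 0.20, Klf5 at 0.45 and Perm1 at 0.35. Hif1a was higher by size in GANT61 too, at 0.67, and stood at 0.39 in cyclopamine. It was the deepest of those named, with 23041 counts in GANT61, 20435 in cyclopamine and 14902 in DMSO. Of 19 other targets and kinases 1 was higher and 3 lower in GANT61 and 1 higher and 2 lower in cyclopamine. Pdk3, another pyruvate dehydrogenase kinase, stood at -1.09 in GANT61 and -0.43 in cyclopamine, and Ucp2, a mitochondrial carrier, at -0.94 in GANT61 and -0.62 in cyclopamine. Acaca, which encodes an enzyme that makes the malonyl-CoA that brakes CPT1, stood at 0.74 in GANT61 and 0.89 in cyclopamine. Of its 50-base windows 52.6% are also present in Gm5182.

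The authors' deposited tables list genes as higher or lower in the inhibitors than in the control at a titled fold of 1.2, with no p-value. The authors' deposited table of higher genes, with 6612 entries, holds 10 of the 40: Acsl1, Cpt1a, Cpt1b, Echs1, Esrrg, Fabp3, Lpl, Plin5, Ppara and Ppargc1a. The authors' deposited table of lower genes, with 6461 entries, holds 3: Acadl, Acot1 and Cpt2. For scale, 22450 genes had a count in at least 1 library, so each list takes in a large part of all genes. The 10 and the 3 are therefore not read as a result about the 40 genes.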

How the data were processed

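RNA-seq was compared between cardiomyocyte libraries of the GANT61, cyclopamine and DMSO groups. Analysis began from gene counts that the authors deposited without normalization, per the file headers, in 1 column per group whose code the labels tie to no replicate. A deposited column of the mean signal of both inhibitor columns, made by the authors, was not used. The mRNA kit keeps strand, per the labels' protocols. The tools named, per the submitters' processing notes, are featureCounts, HISAT2 2.1.0, Trimmomatic 0.33 and FastQC, with the build GRCm38. For annotation and strand setting, the sources used here give nothing.

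Totals ran from 35461530 to 38966515 counts, and the median interval of a member reached 0.081 to either side of its log2 fold change in GANT61 against DMSO. Genes were kept by filterByExpr of edgeR 4.0.16, scaled by TMM and compared on a log2 CPM scale (prior count 2). With 1 column per group a test per inhibitor has no residual degrees of freedom, so the size rule (1.5-fold and an exact conditional binomial 95% interval, SciPy 1.17.1) was used, beside the edgeR quasi-likelihood test of both inhibitors together. DESeq2 1.42.0 and limma-voom 3.58.1 were alternatives. Positions, exon lengths, overlaps and shared 50-base windows came from GENCODE mouse release 21, which matched 55227 of 55487 genes. The members, lists and size rule were chosen with earlier results of these data known. All members could be named. Of each pathway list up to 4 genes past the size rule with a mean of at least 5 CPM were eligible, by largest fold.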

Additional observations from a re-analysis of the deposited data

Results flagged for a closer look

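Hadh is listed because its counting intervals against DMSO lay on opposite sides of 0, at -0.13 (-0.21 to -0.06) in GANT61 and 0.12 (0.05 to 0.19) in cyclopamine. GANT61 against cyclopamine was -0.25 (-0.32 to -0.17). Each value is from 1 library, neither passed 1.5-fold, and the difference was not tested between replicates.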

How the results depend on the processing

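No paired analysis was possible because the count columns carry no replicate number, and with 1 column per group no replicate could be left out. With a threshold of 1.2-fold the member calls were 11 higher and 3 lower in GANT61 (19.5% and 23.0% of all genes), 8 and 2 in cyclopamine (10.5% and 14.1%), and 8 and 4 in GANT61 against cyclopamine (15.8% and 17.7%). With 2-fold they were 3 higher and 0 lower in GANT61 (4.04% and 7.65% of all genes), 1 and 1 in cyclopamine (2.21% and 3.9%), and 1 and 1 in GANT61 against cyclopamine (2.99% and 4.34%). With at least 5 CPM in 2 libraries 35 of the 40 members could be compared. Then 0 were lower in cyclopamine, and GANT61 against cyclopamine gave 0 higher and 1 lower. With library size alone GANT61 against cyclopamine gave 2 higher and 1 lower (6.94% and 8.0% of all genes). Among the 32 members with little overlap or shared sequence, an alternative chosen after seeing the data, 0 were lower in cyclopamine and 0 higher in GANT61 against cyclopamine. The edgeR test of both inhibitors called 3 members higher without the filter and 0 with it, and the cause was not tested. The other counts stayed within 1.5 times, the median log2 fold change ran from 0.06 to 0.09 in GANT61, from 0.01 to 0.04 in cyclopamine and from -0.03 to 0.03 in GANT61 against cyclopamine, and no called member changed sign under any setting run. Low counts limit Ucp3, Plin5, Acot1 and Cpt1b.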
